A study of Homo sapiens with 6 samples.

Results

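The 9 genes described here encode the transcription factor ATF4 and the factors and early targets that act with it in the integrated stress response. They are ATF4, ATF3, ATF5, DDIT3, TRIB3, CHAC1, CEBPB, CEBPG and NUPR1, taken by gene name from a table of 58735 genes, and each name matched 1 row. In this response, kinases that sense misfolded protein, lack of amino acids, lack of haem or viral RNA phosphorylate the translation factor eIF2 alpha. Protein synthesis then slows as a whole while ribosomes reach the ATF4 coding sequence more often, so ATF4 protein is set largely by translation, which messenger RNA levels do not show. ATF4 binds DNA as a dimer with other leucine zipper proteins and induces genes of amino acid supply, redox balance and, under lasting stress, cell death.

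The libraries came from the wild-type human induced pluripotent stem cell line Ff-I01s01, a reprogrammed line able to form all tissues, differentiated towards pancreatic progenitors. Control cultures (n = 3 libraries) went through the step named S3 from day 6 to day 8 without K-3, and K-3 cultures (n = 3) had the agent at 2 µM in that step. K-3 is known here by its code name alone, and all libraries come from this single line, so the results describe 1 line. The question of the series is what K-3 does to these cells as they become progenitors. The labels do not state whether replicate libraries stem from separate differentiations, so the p-values reflect how far these libraries vary, possibly for technical reasons alone.

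Totals of fragments assigned to genes were 35334645 to 38773637 in Control and 41839266 to 50199369 with K-3. Levels are the authors' deposited FPKM, fragments scaled to gene length and library size. Among pancreatic progenitor markers PDX1 stood at 14.3 ± 3.2 FPKM in Control and 22.2 ± 1.2 with K-3 (SD, n = 3 per group) and FOXA2 at 98.9 ± 3.4 and 111 ± 3.4. The later marker NKX6-1 had no fragment in any library, which at 3 fragments allows up to 0.0191 to 0.027 FPKM (counting error only), and PTF1A did not exceed 0.0854 FPKM. The summed level of the 9 progenitor markers, mostly GATA4, GATA6 and FOXA2, was 393 to 431 FPKM in Control and 458 to 478 with K-3. That of the 5 hepatic markers was 2718 to 3026 and 2625 to 2776 FPKM, of the 5 pluripotency markers, mostly LIN28A, 356 to 389 and 357 to 363, of the 6 mesenchymal markers 23.4 to 25.9 and 24.7 to 27.5, of the 4 intestinal markers 33.6 to 38.9 and 39.5 to 41.5, and of the 4 endothelial and blood markers 0.0307 to 0.0897 and 0.039 to 0.097. The progenitor and intestinal sums were higher in every K-3 library than in every Control library, and their part in the results below was not tested. The intestinal markers did not move together. CDX2 stood at 7.68 ± 2.9 FPKM in Control and 13.4 ± 0.84 with K-3, but VIL1 at 29.1 ± 1.7 and 26.9 ± 1.8. CDX1 and LGR5 did not exceed 0.0586 and 0.0748 FPKM. In such bulk libraries, fewer cells that use a gene and less of its RNA per cell cannot be told apart.

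With K-3, ATF4, CHAC1 and DDIT3 fell, and no member rose. Between group means, ATF4 messenger RNA fell by 23.4%, DDIT3 fell by 35.9% and CHAC1 fell by 87.1%. ATF3, CEBPB and CEBPG were also lower in every K-3 library than in every Control library, but they did not pass the test. TRIB3 and ATF5 had overlapping ranges, and NUPR1 was too low to test. The test was limma on log2(FPKM + 1) over the 12968 genes whose mean reached 1 FPKM, two-sided, with Benjamini-Hochberg adjustment over these genes and a threshold of 0.05. Of all tested genes 0.91% were called lower and 1.17% higher (2.08% in either direction), against 3 and 0 of the 8 members tested. At an unadjusted p under 0.05, 10.4% of all tested genes were lower (22.1% in either direction), as were 6 of the 8 members. By limma voom on recovered fragments, which called 3.02% of genes lower, 4 of the 8 members passed. Groups did not overlap in 27.4% of all tested genes, and in 12% they did not overlap with K-3 lower, which held for 6 of these 8 members. The median difference of the 8 members was -0.35 on the log2 scale, beside 0.01 over all tested genes. The members were chosen with earlier results of these data known, so these counts are a description. CHAC1 had a mean below 1 FPKM with K-3 and reached the test through its Control values.

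**Figure D1:**
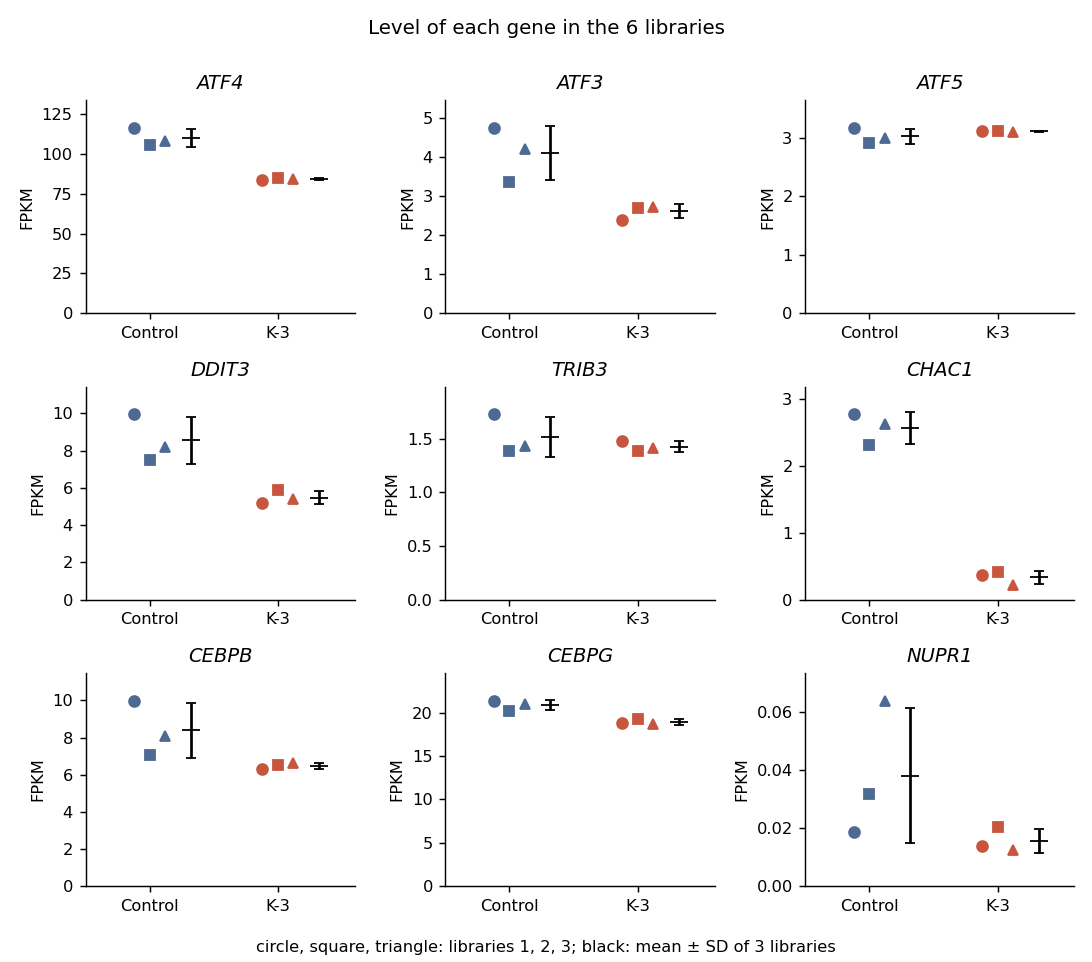
FPKM of the 9 genes (vertical axes, each from 0) in the Control and K-3 libraries; symbols are single libraries and black marks give the mean ± SD of 3. CHAC1 lies between 2.31 and 2.77 in Control and between 0.219 and 0.415 with K-3, ATF4 between 106 and 116 and between 84 and 84.8, while the ranges of ATF5, TRIB3 and NUPR1 overlap.

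ATF4, the factor that drives the response, lies on chromosome 22 from 39519695 to 39522685 on the + strand (ENSG00000128272, build GRCh38, as all positions of genes here). Its level was 116, 106 and 108 FPKM in Control libraries 1, 2 and 3 and 84, 84.8 and 84.3 FPKM with K-3. The groups were apart, with 21.1 FPKM between the lowest Control and the highest K-3 library. Mean ATF4 was 110 ± 5.6 FPKM (SD, n = 3) without and 84.3 ± 0.41 (n = 3) with the agent, a log2 fold change of -0.38 (SE 0.05, limma adjusted p = 0.0253). These values rest on 8930 to 11170 fragments per library. The 3 K-3 libraries differed from each other by less than counting alone would give, with a coefficient of variation of 0.481% where the fragment number gives 1.02%, whereas Control varied by 5.07%. ATF4 was the most abundant of the 9 genes per length, with 69% of their summed FPKM. It has 4 processed copies in the genome, ATF4P1 to ATF4P4, which held 7, 2, 65 and 3 fragments over all libraries, so fragments assigned to copies were few. Leaving out Control replicate 3 (adjusted p = 0.0881), or any one K-3 replicate (0.0969, 0.117 and 0.0952 for replicates 1, 2 and 3) ended the call, while the difference stayed between -0.34 and -0.41 with any 1 library left out.

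CHAC1 encodes an enzyme that degrades glutathione and is among the genes most strongly induced by ATF4. It spans chromosome 15 from 40952962 to 40956519 on the + strand (ENSG00000128965). Control libraries had 2.77, 2.31 and 2.63 FPKM, from 218, 185 and 195 fragments, and K-3 libraries had 0.364, 0.415 and 0.219 FPKM, from 38, 37 and 19 fragments. Every K-3 library was far below every Control library, and K-3 library 3 was the lowest. The mean was 2.57 ± 0.24 FPKM without and 0.333 ± 0.1 with the agent (a difference of -1.42 on the log2 scale, SE 0.09, 95% interval -1.64 to -1.21, limma adjusted p = 0.00733), and its p was the smallest of the 12968. The scale with 1 added understates this change, since the ratio of the group means was 0.129, or 7.74-fold lower with K-3. With 0.1 added the difference was -2.65, and limma voom on the recovered fragments gave -2.96. It no longer passed without K-3 replicate 2 (adjusted p = 0.06).

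DDIT3, known as CHOP, is a C/EBP family factor that ATF4 induces and that takes part in stress-driven cell death. It lies on chromosome 12 from 57516588 to 57521737 on the - strand (ENSG00000175197). Its levels were 9.94, 7.49 and 8.21 FPKM in Control and 5.17, 5.87 and 5.39 FPKM with K-3, and the groups did not overlap. DDIT3 fell by 0.55 on the log2 scale (SE 0.09, limma adjusted p = 0.0389). Of its exon bases 27.2% are shared with MARS, the methionyl-tRNA synthetase, on the opposite strand, 4.44% with MBD6 on that strand and 8.03% with AC022506.1 on its own, which had no fragment. MARS itself fell, with 20.3 ± 1.6 FPKM without and 15.3 ± 0.29 with the agent (-0.38, adjusted p = 0.0343). No source used here states whether strand was used in counting, so the DDIT3 value is uncertain, and the part of MARS in it was not tested. DDIT3 no longer passed when Control replicate 3 was left out (adjusted p = 0.125), nor without any one K-3 replicate (0.12, 0.119 and 0.119 for replicates 1, 2 and 3).

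ATF3 is a stress-induced factor that can repress or activate and that often pairs with JUN proteins. It spans chromosome 1 from 212565334 to 212620777 on the + strand (ENSG00000162772), with 7 annotated transcript starts that 1 value per gene does not tell apart. Control libraries had 4.73, 3.36 and 4.18 FPKM and K-3 libraries 2.39, 2.7 and 2.72 FPKM. All K-3 libraries were below all Control libraries, though Control library 2 lay only 0.639 FPKM above the nearest K-3 library. The difference was -0.49 (SE 0.10, 95% interval -0.73 to -0.26, limma adjusted p = 0.0575), so it missed the threshold. It passed by voom (adjusted p = 0.0155), with equal fragment totals (0.0476), with array quality weights (0.0165), among protein-coding genes only (0.0188) and without Control replicate 2 (0.0155). In the other 9 of the 14 alternatives tried ATF3 did not pass, with a limma adjusted p of up to 0.217. These included leaving out any one K-3 replicate.

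Windows from 250 bases before to 50 bases after annotated starts (RefSeq, GRCh38.p14) were searched on both strands for the elements that these factors are known to bind. They were TGATGNAA (reverse complement TTNCATCA), the core of the C/EBP-ATF element bound by ATF4 with C/EBP partners, TGACGTCA, the ATF/CRE palindrome, TGACTCA (reverse complement TGAGTCA), the AP-1 element, and the endoplasmic reticulum stress element. Windows were at hand for 8 of the 9 genes, 17 in all, and NUPR1 had none. The C/EBP-ATF core was in a window of 3 genes, CHAC1, ATF3 and CEBPG, and the AP-1 element in both windows of DDIT3, at the same place, and in a window of ATF5. The matches are shown with 8 bases on each side, read 5′ to 3′ so that the motif, in capitals, runs forward.
CHAC1: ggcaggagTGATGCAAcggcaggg
ATF3: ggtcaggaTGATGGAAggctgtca
CEBPG: gcggcgtcTGATGCAAcctgccgg
DDIT3: cgcgcgcaTGACTCAcccacctc
ATF5: gagtgctgTGACTCAtgctggac

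The CHAC1 stretch lies at chr15:40953254-40953277 and is given on the - strand, opposite to the gene. Its match is at position -209 relative to the annotated start that its window spans, and positions below are counted likewise. All 300 bases of the CHAC1 window also lie within annotated exons, and the annotated CHAC1 gene begins before it, at 40952962. CEBPG, whose difference did not pass, had the same 8 letters as CHAC1, TGATGCAA, at chr19:33374063-33374086 on the + strand and position -42. The ATF3 stretch lies at chr1:212565208-212565231 on the + strand (position -191), that of DDIT3 at chr12:57520741-57520763 on the - strand (position -241) and that of ATF5 at chr19:49928710-49928732 on the + strand (position -188). For ATF3 the exon-free part of the window, chr1:212565157-212565333 on the + strand, is printed whole to show the surroundings of its match, again in capitals.
ATF3: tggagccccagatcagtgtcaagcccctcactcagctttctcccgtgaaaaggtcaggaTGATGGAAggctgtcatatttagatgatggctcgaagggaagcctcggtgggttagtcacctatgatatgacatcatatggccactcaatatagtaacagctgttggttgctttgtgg

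The C/EBP-ATF core was in 3.62% of all 35116 windows, and in a window of 2.46% of the 9222 tested genes that had one. TGACTCA was in 4.95% of all windows, TGACGTCA in 1.85% and the endoplasmic reticulum stress element in 0.0769%, and the last pair were in no window of the members. None of these matches overlapped another. A match is a run of letters, and no binding was measured.

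CEBPB and CEBPG belong to the C/EBP family and form dimers with ATF4 and DDIT3; CEBPB also drives liver and fat cell genes, and CEBPG lacks a strong activation domain. CEBPB (ENSG00000172216) lies on chromosome 20 from 50190734 to 50192689 on the + strand. It had 9.98, 7.08 and 8.1 FPKM in Control and 6.28, 6.51 and 6.62 FPKM with K-3. The K-3 libraries were close together and below Control, whose own libraries spread over a wider range. The difference was -0.32 (SE 0.10, 95% interval -0.56 to -0.08, limma adjusted p = 0.139), and without Control replicate 1, the highest, it was -0.20. It passed with array quality weights (adjusted p = 0.0425) and without Control replicate 2 (difference -0.42, adjusted p = 0.0473). In the other 13 of the 15 alternatives tried CEBPB did not pass. CEBPB shares 11.8% of its exon bases with CEBPB-AS1 on the opposite strand, which stood at 0.205 ± 0.024 and 0.188 ± 0.034 FPKM.

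CEBPG (ENSG00000153879) lies on chromosome 19 from 33373330 to 33382686 on the + strand. Its levels were 21.4, 20.3 and 21 FPKM in Control and 18.8, 19.3 and 18.7 FPKM with K-3, so the ranges were narrow and apart. The difference was small, -0.13 (SE 0.04, 95% interval -0.23 to -0.04, limma adjusted p = 0.115), and it did not pass in any of the 15 alternatives tried. CEBPG was the second most abundant member per length in both groups.

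ATF5, the closest relative of ATF4 and a driver of the mitochondrial stress response, spans chromosome 19 from 49928702 to 49933935 on the + strand (ENSG00000169136). It had 3.17, 2.91 and 3 FPKM in Control and 3.11, 3.12 and 3.1 FPKM with K-3, and the K-3 values lay inside the Control range. The difference was 0.03 (SE 0.05, 95% interval -0.08 to 0.14, limma adjusted p = 0.743). NUP62, a nuclear pore gene on the opposite strand, covers 21.2% of the ATF5 exon bases and had 15.8 ± 0.64 and 18.2 ± 0.67 FPKM in the respective groups (difference 0.19, adjusted p = 0.0792). The ATF5 value is therefore uncertain, and the part of NUP62 in it was not tested.

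TRIB3, a pseudokinase that ATF4 and DDIT3 induce and that acts back on both, spans chromosome 20 from 362835 to 397559 on the + strand (ENSG00000101255). Control libraries had 1.72, 1.39 and 1.43 FPKM and K-3 libraries 1.48, 1.39 and 1.41 FPKM. Control library 1 was the highest, and the other 5 libraries lay between 1.39 and 1.48 FPKM. The difference was -0.05 (SE 0.08, 95% interval -0.23 to 0.13, limma adjusted p = 0.731), and it turned to 0.01 without Control replicate 1. These levels rest on 177 to 258 fragments per library.

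NUPR1, a small stress-induced chromatin protein, spans chromosome 16 from 28532708 to 28539174 on the - strand (ENSG00000176046). It had 0.0185, 0.0318 and 0.0637 FPKM in Control, from 4, 7 and 13 fragments. With K-3 it had 0.0139, 0.0204 and 0.0125 FPKM, from 4, 5 and 3 fragments. Control libraries 2 and 3 were above every K-3 library and Control library 1 was not, so the ranges overlapped. In a gene of this length 3 fragments make 0.0104 to 0.0147 FPKM, and NUPR1 lay below the minimum for the test.

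**Figure D2:**
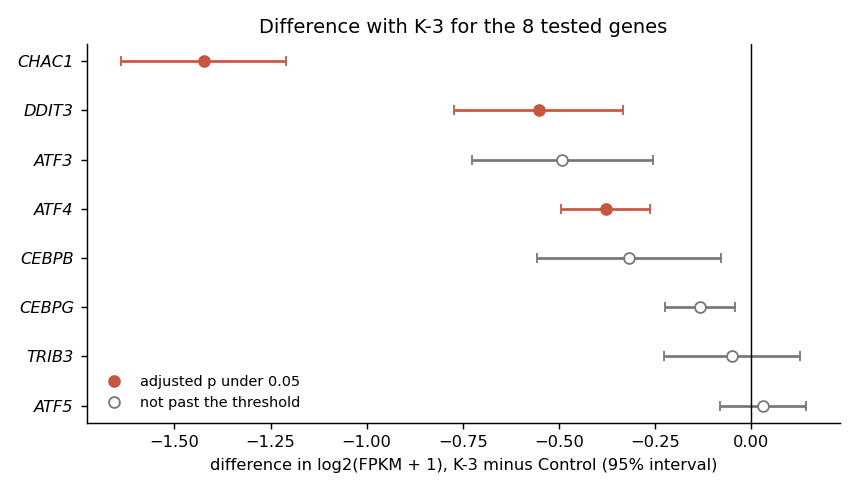
Difference in log2(FPKM + 1) between K-3 and Control (horizontal axis) for the 8 tested genes, with 95% intervals from limma; filled points passed an adjusted p of 0.05. CHAC1 stands at -1.42, DDIT3 at -0.55 and ATF4 at -0.38, and the intervals of TRIB3 and ATF5 include 0.

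The order of the levels per length shifted among the less abundant members. In Control the order of means was ATF4, CEBPG, DDIT3, CEBPB, ATF3, ATF5, CHAC1, TRIB3 and NUPR1, and DDIT3 and CEBPB were the only neighbours whose ranges over libraries overlapped. With K-3 the order was ATF4, CEBPG, CEBPB, DDIT3, ATF5, ATF3, TRIB3, CHAC1 and NUPR1, and no neighbours overlapped. ATF3 was thus above ATF5 in every Control library and below it in every K-3 library. CHAC1 was above TRIB3 in every Control library and below it in every K-3 library.

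Ratios between members were compared directly as differences of log2(FPKM + 1) within a library, for 6 pairs. CHAC1 relative to TRIB3 was 0.47, 0.47 and 0.58 in Control and -0.86, -0.75 and -0.98 with K-3, a shift of -1.37. CHAC1 relative to ATF4 shifted by -1.05, from -4.96 ± 0.05 to -6.00 ± 0.11 (SD, n = 3), so CHAC1 was lower with K-3 by more than ATF4 was. ATF5 relative to ATF4 shifted by 0.41, from -4.79 ± 0.03 to -4.38 ± 0.01. In each of these 3 pairs the groups did not overlap, and the exact permutation test gave p = 0.1 (two-sided, adjusted p = 0.2 over 6 pairs), the smallest that 3 against 3 libraries allow. DDIT3 relative to ATF4 shifted by -0.17 (exact permutation p = 0.2, adjusted 0.24), CEBPB relative to CEBPG by -0.18 (p = 0.2, adjusted 0.24, exact permutation) and ATF3 relative to ATF4 by -0.11 (exact permutation p = 0.3, adjusted 0.3). In these last 3 pairs the ranges overlapped. With 0.1 added in place of 1, CHAC1 shifted by -2.58 against TRIB3 and by -2.27 against ATF4, and ATF3 against ATF4 by -0.24 (exact permutation p = 0.3). DDIT3 against ATF4 shifted by -0.24 on that scale, and its groups no longer overlapped (exact permutation p = 0.1).

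**Figure D3:**
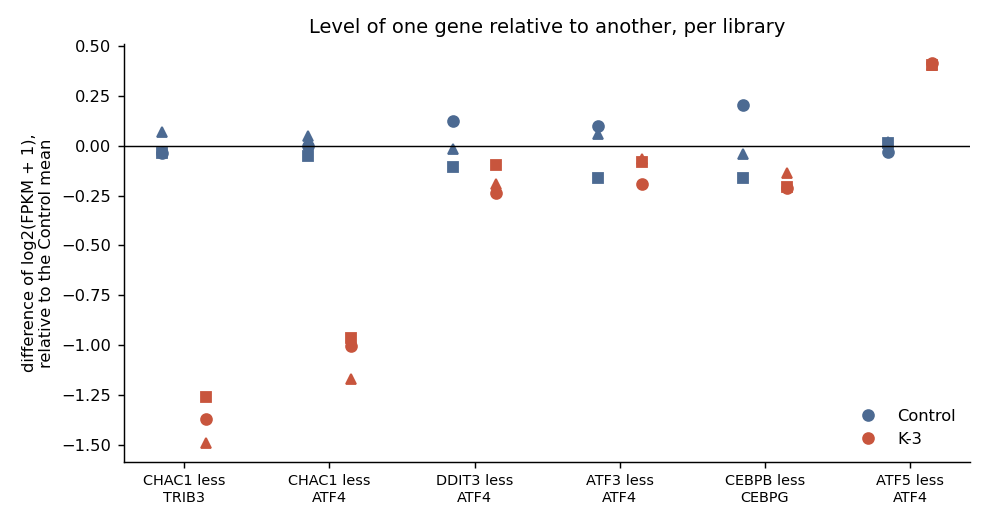
Level of a gene relative to another within each library, as a difference of log2(FPKM + 1) set to 0 at the Control mean of each pair (vertical axis); blue points are Control and red points K-3 libraries. CHAC1 shifts by -1.37 against TRIB3 and by -1.05 against ATF4, and ATF5 shifts by 0.41 against ATF4.

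Control library 1 was the highest Control library for all 8 tested members, while it was the highest for 45.5% of all tested genes. Without it the differences of CEBPB and ATF3 were -0.20 and -0.40, and ATF4, CHAC1 and DDIT3 passed (adjusted p = 0.0162, 0.0121 and 0.0223). Among K-3 libraries the highest value fell in library 2 for 5 members, in library 3 for 2 and in library 1 for 1.

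**Figure D4:**
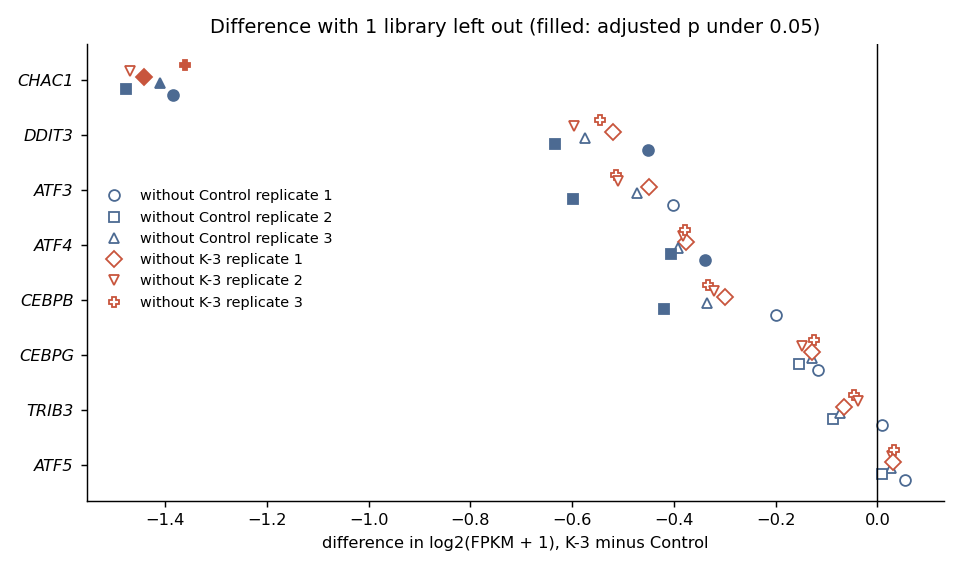
Difference in log2(FPKM + 1) between K-3 and Control (horizontal axis) for the 8 tested genes with each library left out in turn; filled symbols passed an adjusted p of 0.05. CHAC1 stays between -1.36 and -1.48, and TRIB3 turns to 0.01 without Control replicate 1.

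Over 4 lists of genes that ATF4 or DDIT3 are known to induce, 13 of 44 tested genes fell and 0 rose, and the others did not pass. Of all tested genes, 0.91% were called lower and 1.17% higher. The lists were chosen with earlier results of these data known, so these counts are a description. The count of targets lower was 12, 20 and 4 without Control replicate 1, 2 and 3, and 1, 0 and 1 without K-3 replicate 1, 2 and 3. Among aminoacyl-tRNA synthetases, which charge transfer RNAs, 6 of 12 fell (AARS, TARS, CARS, MARS, YARS and GARS), with a list median of -0.26. The log2 fold changes of these 6 ran from -0.35 for AARS (42.6 ± 2.2 to 33.1 ± 0.7 FPKM) to -0.43 for TARS (21.4 ± 1.8 to 15.6 ± 0.32 FPKM). Those of the 6 that did not pass ran from -0.16 to 0.01. Among amino acid transporters 2 of 8 fell, SLC7A11, which imports cystine for glutathione (-1.01), and SLC7A1, which imports arginine and lysine (-0.72). The SLC7A11 mean was 2.98 ± 0.65 FPKM without and 0.953 ± 0.05 with the agent, so, like CHAC1, it reached the minimum through Control, and its difference was -1.53 with 0.1 added and -1.61 by voom. The list median was -0.47, and SLC7A5, a leucine transporter, stood at 207 ± 25 and 149 ± 19 FPKM without passing (-0.47, limma adjusted p = 0.0861). Among enzymes of amino acid and one-carbon synthesis 2 of 11 fell, MTHFD2 of the mitochondrial folate pathway (-1.11) and PSAT1 of serine synthesis (-0.84), with a median of -0.22. Among regulators induced by ATF4 and DDIT3 3 of 13 fell: DDIT4 and SESN2, inhibitors of mTORC1 (-0.93 and -0.60), and ADM2, a secreted peptide (-0.72, or -1.11 with 0.1 added and -1.18 by voom). The median of that list was -0.04. PPP1R15A, which carries the phosphatase that ends the response, had 33.6 ± 2.4 and 33.5 ± 2.9 FPKM (difference -0.01, 95% interval -0.19 to 0.17). ASNS, asparagine synthetase, stood at 0.611 ± 0.16 FPKM in Control and 0.194 ± 0.1 with K-3, below the minimum for the test; SLC7A5, PPP1R15A and ASNS were named after their values were seen.

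Genes before ATF4 in the pathway, and other stress routes, had few or no calls. With 2.08% of all tested genes called in either direction, lists this short would hold few calls at that share. Of 16 tested genes for the eIF2 alpha kinases, eIF2B and the phosphatase, 0 passed with limma and 4 had an unadjusted p under 0.05, 2 lower and 2 higher (median -0.01), a share near the 22.1% of all tested genes. EIF2AK3, the kinase PERK that senses misfolded protein in the endoplasmic reticulum, had the smallest p of them and overlapping ranges (11.5 ± 1.3 and 9.62 ± 0.51 FPKM, difference -0.23, adjusted p = 0.148). PPP1R15B, the constitutive phosphatase subunit, had -0.12 (adjusted p = 0.167) and OMA1, a mitochondrial protease that relays stress to eIF2 alpha, 0.13 (adjusted p = 0.21). Of 6 genes of ATF4 protein turnover 0 passed and 0 had an unadjusted p under 0.05 (median 0.02); the smallest p-values were those of FBXW11, BTRC and EP300 (0.05, 0.04 and -0.03). The list of leucine zipper genes that can pair with ATF4 or C/EBP factors held 24 tested genes, though CEBPZ has no leucine zipper. Of these 24, JDP2, a repressor of AP-1, fell from 3.08 ± 0.055 to 1.34 ± 0.063 FPKM (-0.80, limma adjusted p = 0.00733), and the other 23 did not pass (list median 0.03). Of all tested genes 0.91% were called lower. At an unadjusted limma p under 0.05, 1 was lower and 5 were higher, where 10.4% and 11.7% of all tested genes were.

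The ATF6 and XBP1 arms of the unfolded protein response had 0 of 18 genes past the test, with 3 lower and 1 higher at an unadjusted p under 0.05, where 10.4% and 11.7% of all tested genes were, and a median of -0.08. Of these 18 genes 16 had a negative difference, as had 5883 of all 12968 tested genes. HERPUD1, a gene of protein degradation at the endoplasmic reticulum that ATF4 also induces, had 5.48 ± 0.12 and 4.43 ± 0.26 FPKM (-0.26, limma adjusted p = 0.0504). XBP1 had -0.20 (adjusted p = 0.141) and ATF6, one of the sensors, 0.13 (adjusted p = 0.148). Of 10 p53 targets 0 passed and 1 had an unadjusted p under 0.05, with FDXR (0.19), TP53I3 (-0.16) and PHLDA3 (0.14) having the smallest p-values. Of 8 heat shock genes 0 passed and 3 had an unadjusted p under 0.05 with a positive difference, HSPB1 (0.21, adjusted p = 0.0589), HSPA1A (0.18) and DNAJB1 (0.15). Of 8 NRF2 targets, SLC7A11 fell, which is also an ATF4 target, and the other 7 did not pass. At an unadjusted limma p under 0.05, 1 of these 8 was lower, SLC7A11, and 1 was higher. The medians of these last 3 lists were 0.04, 0.07 and 0.02. Whether the calls differ between these routes and the ATF4 targets was not tested.

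**Figure D5:**
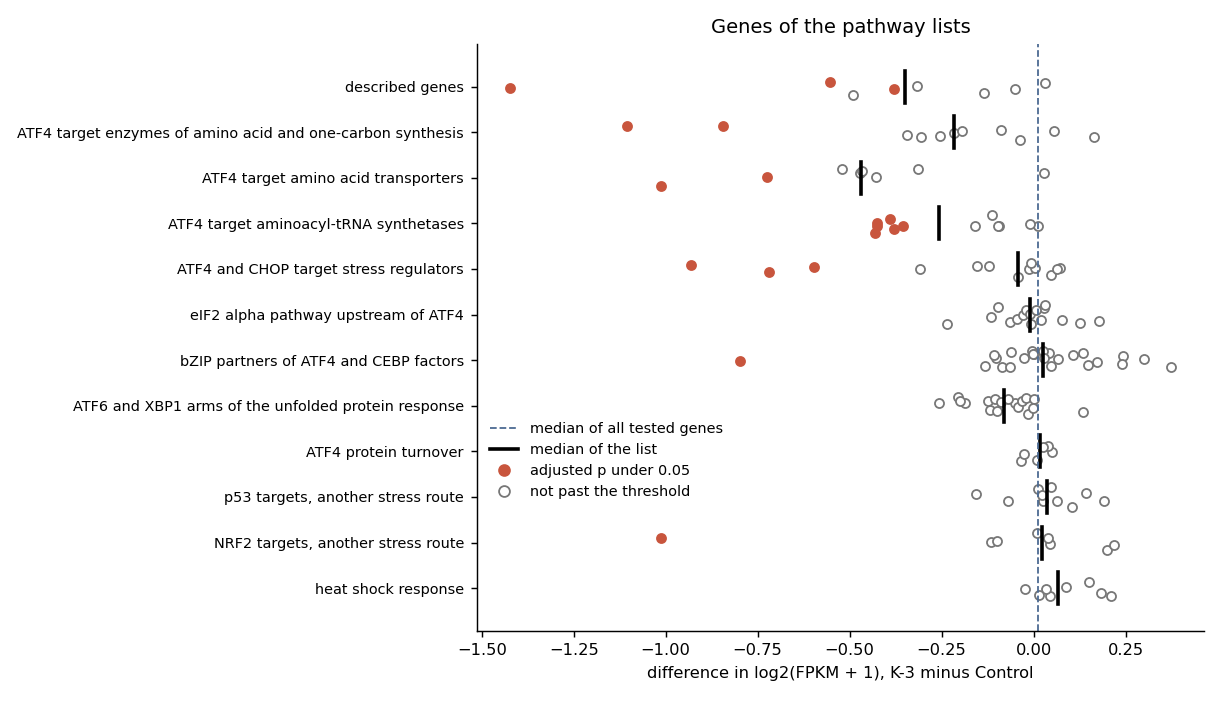
Difference in log2(FPKM + 1) between K-3 and Control (horizontal axis) for the tested genes of each list (rows, with the 9 described genes on top); filled points passed an adjusted p of 0.05, bars are list medians and the dashed line is the median of all tested genes (0.01). Transporters have the lowest median, -0.47, and the filled points all lie below 0.

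Over the 6 libraries the protein-coding genes whose log2(FPKM + 1) was most like that of ATF4 were PLS3 (Pearson's r = 0.998), ABCC4 (0.994), MYOF (0.99), EPSTI1 (0.988) and STAG1 (0.986), out of 11171. CHAC1 ranked 6 in that order (0.985), DDIT3 17, CEBPG 36, ATF3 78 and CEBPB 379, while TRIB3 ranked 2324 (0.553) and ATF5 6704 (-0.303). The genes most like CHAC1 were DTNA (0.995), ZSCAN9 (0.991), MICAL1 (0.991), RPS6KA3 (0.991) and SFT2D2 (0.989). MYOF, a membrane repair protein, fell by 0.28 on the log2 scale (67.7 ± 1.9 and 55.6 ± 1.4 FPKM, limma adjusted p = 0.034), and STAG1, a cohesin subunit, fell by 0.45 (20.05 ± 1.2 and 14.4 ± 0.78 FPKM, adjusted p = 0.0253). DTNA, MICAL1 and RPS6KA3 also fell (-0.44, -0.35 and -0.22). These coefficients are a description: all points share the same 6 libraries, and the coefficients include the difference between the groups.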

How the data were processed

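Poly-A messenger RNA from 6 libraries, 3 Control and 3 with K-3, was sequenced as paired-end reads, per the labels' protocols. The authors deposited FPKM per gene and library with gene lengths. Per the submitters' processing notes, which give neither role nor order, GRCh38 was used with DESeq2 1.20.0, HISAT2 2.0.5 and featureCounts 1.5.0-p3. Each FPKM times gene length is a whole multiple of a library's step (100% of values within 1e-06), which gave fragments; the steps carry a median-of-ratios scaling to within 0.345%. Genes of chromosome Y and the XIST locus were left out (520 rows). Gene IDs matched GENCODE release 29.

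Fits used limma 3.58.1 (lmFit and eBayes with trend, R 4.3.3) on log2(FPKM + 1), a pseudocount of 1, for genes whose mean reached 1 FPKM, with Benjamini-Hochberg adjusted p-values over all of them. The fit was tested on simulated data with the same relative spread beyond counting for every gene and both groups. That test does not cover genes whose spread differs between the groups. Fold changes are on this scale. The replicate numbers were not used as pairs. Each pathway list is described by its counts and median. The text names all members, list genes past the threshold or else the 3 with the smallest p, the 5 genes most like ATF4 and CHAC1, and genes sharing exon bases with members. The members and lists were chosen with earlier results of these data known. Alternatives covered the pseudocount, the minimum, scaling, voom, weights, gene type, a block and left-out libraries.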

Additional observations from a re-analysis of the deposited data

How the results depend on the processing

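The 8 tested members kept their direction in every alternative in which they were tested, except TRIB3, which ranged from -0.08659 without Control replicate 2 to 0.008654 without Control replicate 1. Calls were less stable than directions. Against 3 members, 13 target genes and 118 genes lower and 152 higher, array quality weights gave 5 members and 25 targets lower, 1 target higher, and 963 genes lower and 1091 higher. Limma voom gave 4 members, 20 targets, 391 and 429, and protein-coding genes only gave 4 members, 21 targets, 285 and 402. A minimum of 5 FPKM gave 2 members, both of the 4 still tested, and 169 and 237 genes. With no minimum mean 0 members, 0 targets, 0 genes lower and 0 higher passed by limma, where 35411 genes were tested, against 4165 genes and 6 members at an unadjusted p under 0.05. The replicate block gave 0 in each of these counts, with 2132 genes and 6 members at an unadjusted p under 0.05. Same-numbered libraries did not deviate together (r of -0.364, -0.034 and -0.113), so the numbers are not evidence of pairs. Differently numbered libraries gave r from -0.27 (Control 2 with K-3 3) to 0.332 (Control 1 with K-3 3). With 1 library left out, members lower ranged from 0 to 5, targets lower from 0 to 20, genes lower from 0 to 440 and genes higher from 0 to 275; all 4 counts were 0 without K-3 replicate 2, where 2020 genes and 6 members had an unadjusted p under 0.05. Depth limits NUPR1, and CHAC1 with K-3, which rests on 94 fragments in all. The 6 ratios between members kept their direction, though not their size, with a pseudocount of 0.1 and with each library left out.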
